A study of Mus musculus with 3 samples.

Results

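Messenger RNA of 9 CC chemokine and CC chemokine receptor genes was followed in single cells of bone-grown tumours. The genes were chosen by symbol, as 7 ligands (Ccl2, Ccl7, Ccl8, Ccl12, Ccl24, Ccl3 and Ccl4) and 2 receptors (Ccr2 and Ccr1), and all 9 were found among the 55357 genes of the deposited matrices. The tumours were LLC1 grafts (a Lewis lung carcinoma line of the mouse) placed in the marrow cavity of the right tibia of mice 8 weeks old and taken on day 14. The hosts were Mfn2-/- or Rhot1-/-, each by DMP1-Cre, or wild type (WT), and give the Mfn2-/-, Rhot1-/- and WT libraries below. Each of the 3 libraries pooled cells of 3 tumours from 3 mice, after dead cells were sorted out with a viability dye, and no map from cells to mice was used. With 1 library per genotype nothing here has a replicate check, and no test between genotypes was possible. Ranges in parentheses are 95% intervals that cover counting error alone. Both knockout comparisons use the same WT library.

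DMP1-Cre is active in osteocytes and late osteoblasts, so the deletions lie in bone cells of the host and not in the grafted tumour cells. The labels name no Cre for the WT hosts, so carriage of Cre cannot be told apart from loss of either gene. Hardly any osteocyte RNA was captured: Dmp1 had 6 UMIs (unique molecular identifiers, 1 per captured RNA molecule) in all kept Mfn2-/- cells, 3 in Rhot1-/- cells and 9 in WT cells, and the osteocyte gene Sost had 0, 0 and 1. Mfn2 stood at 20.3, 20.7 and 16.2 CPM (UMIs of a gene per 1000000 UMIs of the cells summed) over all cells of the Mfn2-/-, Rhot1-/- and WT libraries, and Rhot1 at 23.7, 25.2 and 23.1 CPM. Since the cells with the deletions were hardly measured, these values check no label.

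CC chemokines are small secreted proteins with a pair of adjacent cysteines that draw leukocytes along a gradient by binding G protein-coupled receptors. CCL2, CCL7 and mouse CCL12 bind CCR2, which takes classical monocytes out of the bone marrow and into inflamed tissue or tumours, while CCR1 is a receptor of CCL3 in mice. CCL8 of the mouse is known as a ligand of CCR8, and CCL24 (eotaxin-2) as a ligand of CCR3 on eosinophils. Monocytes lose Ccr2 as they become macrophages in tissue.

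The 3 libraries held 28943 barcodes and 112088653 to 118223251 UMIs each, and 27739 cells were kept. Cells were placed in classes from marker genes that do not include the 9 genes, and the 9 genes and the other listed CC genes were kept out of the clustering. The macrophage-like class held 1132 cells in the Mfn2-/- library, 942 in the Rhot1-/- library and 1172 in the WT library, with median depths of 4280, 5329 and 4705 UMIs. The monocyte-like class held 637, 689 and 892 cells at 3493, 3874 and 3614 UMIs. The neutrophil-like class held 873, 459 and 678 cells and was shallow, at 1054, 1275 and 1149 UMIs. Tumour-like cells were the most numerous named class, 5098, 4583 and 3133 cells at 16166, 17399 and 19593 UMIs, and 16.8%, 23.4% and 28.2% of kept cells stayed unnamed. Libraries shared 20 to 35 barcodes in pairs, and 0 barcodes were in all 3.

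Macrophage-like cells came from 2 clusters. The larger, led by C1qa, C1qb and Mrc1 (complement and mannose receptor genes of mature macrophages), held 745, 701 and 728 cells in the Mfn2-/-, Rhot1-/- and WT libraries. The smaller, led by Arg1, Ppbp, Pf4 and Hmox1 (arginase 1, 2 chemokines also known from platelets, and haem oxygenase 1), held 387, 241 and 444 cells. The summed level of the megakaryocyte markers was, in macrophage-like cells, 878, 759 and 405 CPM. Ppbp gave 11653 UMIs of it, while Itga2b had 4, Treml1 8, Gp1bb 1 and Gp9 0, and its part in the ratios below was not tested. Another cluster led by the interferon-induced genes Rsad2, Cxcl10 and Ifit2 stayed unnamed, with 56, 96 and 79 cells. Those 3 clusters, the monocyte-like cluster and the neutrophil-like cells carry most of what follows.

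The genes lie in 3 groups of neighbours and 1 single gene in the mouse genome (GRCm38, GENCODE M21 annotation). On chromosome 11, Ccl2 (82035571 to 82037453), Ccl7 (82045712 to 82047525), Ccl12 (82101845 to 82103400) and Ccl8 (82115185 to 82116799) lie on the plus strand within 81.2 kb, with Ccl11 between Ccl7 and Ccl12. Ccl3 (83647844 to 83649355, minus strand) and Ccl4 (83662584 to 83664683, plus strand) lie within 16.8 kb further along the same chromosome. Ccr1 (123962124 to 123968692, minus strand) and Ccr2 (124101950 to 124113557, plus strand) lie within 151 kb on chromosome 9, and Ccl24 (135569937 to 135573049, minus strand) is alone on chromosome 5. Neighbours were mostly highest in the same class: Ccl2, Ccl7, Ccl12 and Ccl8 in macrophage-like cells and Ccl3 and Ccl4 in neutrophil-like cells. Ccr1 and Ccr2 were not, with Ccr1 highest in neutrophil-like cells and Ccr2 in monocyte-like cells.

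Upstream sequence was at hand for 5 of the 9 genes (Ccl8, Ccl12, Ccl3, Ccr2 and Ccr1). The 250 bases before the RefSeq start of 3 of them are shown because they contrast the ligands highest in macrophage-like cells, Ccl8 and Ccl12, with one highest in neutrophil-like cells, Ccl3. The sequences are from RefSeq (GRCm38.p6), read 5′ to 3′ on the strand of the gene, at chr11:82114935-82115184 (plus) for Ccl8, chr11:82101595-82101844 (plus) for Ccl12 and chr11:83649379-83649628 (minus) for Ccl3. The RefSeq start of Ccl3 lies slightly upstream of the GENCODE start given above, so its window does not abut that gene span. Capitals mark TATAAA and a match to GAGGAAG, the core read by the myeloid factor PU.1, on the other strand.
Ccl8: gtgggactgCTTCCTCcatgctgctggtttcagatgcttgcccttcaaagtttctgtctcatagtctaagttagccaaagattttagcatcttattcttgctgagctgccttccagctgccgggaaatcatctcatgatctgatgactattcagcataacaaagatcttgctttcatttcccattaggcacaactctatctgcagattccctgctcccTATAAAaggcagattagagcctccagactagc
Ccl12: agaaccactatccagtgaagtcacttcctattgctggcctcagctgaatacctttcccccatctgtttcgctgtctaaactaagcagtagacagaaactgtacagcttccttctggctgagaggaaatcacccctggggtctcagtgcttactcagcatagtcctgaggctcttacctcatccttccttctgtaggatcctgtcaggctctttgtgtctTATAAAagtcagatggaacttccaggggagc
Ccl3: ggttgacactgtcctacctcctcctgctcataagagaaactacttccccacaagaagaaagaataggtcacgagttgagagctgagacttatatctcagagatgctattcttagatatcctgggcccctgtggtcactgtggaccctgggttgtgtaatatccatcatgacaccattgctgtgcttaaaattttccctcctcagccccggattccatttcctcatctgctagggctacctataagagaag
Counting back from the base before the start as -1, TATAAA stood at positions -32 to -27 of Ccl8 and -31 to -26 of Ccl12, and 12.4% of 32851 promoters of this length hold it on either strand. The GAGGAAG match of Ccl8 lies at positions -241 to -235, and 10.6% of promoters hold one. Of the other motifs searched on both strands, the NF-kB-like motif (GGGA and CC with 4 free bases between, in 17.6% of promoters) was found once, in Ccr1, at positions -74 to -65. The ISRE-like motif (GAAA and GAAA with 2 free bases between, 2.98%), TGANTCA (AP-1-like, 6.75%) and TTGCNNAA (C/EBP-like, 9.56%) were in none of the 5 windows. Ccl3 and Ccr2 held none of the 6 letter strings. Near matches, such as strings close to TATAAA, were not counted. A match describes letters and not a bound site.

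Ccl8 lay largely in macrophage-like cells. It stood at 2820 CPM (2776 to 2865) in macrophage-like cells of the Mfn2-/- library, 5341 CPM (5281 to 5402) in those of the Rhot1-/- library and 3245 CPM (3201 to 3289) in those of the WT library. The highest value in any other named class was 242 CPM, in dendritic-like cells of the WT library, so the ranges over the 3 libraries did not overlap. Macrophage-like cells held 83.1%, 83.7% and 82.3% of all Ccl8 UMIs of the Mfn2-/-, Rhot1-/- and WT libraries, while they made up 11.8%, 10.3% and 12.96% of the cells. The UMIs were concentrated: 44, 60 and 49 cells held 50% of the class's Ccl8 UMIs.

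A Ccl8 UMI was found in 45.3%, 63.9% and 50.5% of macrophage-like cells of the Mfn2-/-, Rhot1-/- and WT libraries, and in 30.6%, 45.5% and 34.7% after each cell was thinned to 1000 UMIs. T-like cells, which are not known to make Ccl8, gave 8.51%, 13.2% and 7.33% after thinning, at median depths of 2569, 2248 and 2095 UMIs before it, and monocyte-like cells gave 6.17%, 10.6% and 6.64%. The monocyte-like share was below the T-like share in each library, so no Ccl8 expression is read from it. Per 100 UMIs of C1qa, a macrophage gene, monocyte-like cells had 17.7, 33.6 and 19.0 Ccl8 UMIs and T-like cells 105, 148 and 134, and the part of free RNA in either was not tested. Tumour-like cells had 117, 173 and 107 Ccl8 UMIs per 100 C1qa UMIs, against 85.3, 140 and 88.1 in macrophage-like cells. The ratio was highest in the Rhot1-/- library in both classes.

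Ccl12, the mouse gene for a CCR2 ligand also named MCP-5, was also highest in macrophage-like cells. It stood at 521, 1066 and 712 CPM in macrophage-like cells of the Mfn2-/-, Rhot1-/- and WT libraries, at 41.2, 68.9 and 29.6 CPM in monocyte-like cells, and at 2.89, 6.23 and 3.23 CPM in tumour-like cells. Macrophage-like cells held 79.8%, 79.3% and 85.2% of its UMIs. Per 100 C1qa UMIs, Ccl12 had 15.8, 27.9 and 19.3 UMIs in macrophage-like cells and 16.7, 29.6 and 16.8 in tumour-like cells, a ratio close to the same in both.

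Ccl2, the main monocyte attractant, had its highest CPM in macrophage-like cells, yet most of its UMIs lay in tumour-like cells. Macrophage-like cells stood at 1347 CPM (1316 to 1378) in the Mfn2-/- library, 2024 CPM (1987 to 2062) in the Rhot1-/- library and 1375 CPM (1346 to 1404) in the WT library. Tumour-like cells stood at 565 CPM (560 to 570), 493 CPM (488 to 497) and 732 CPM (725 to 738), in the same range as monocyte-like cells at 688, 880 and 686 CPM. Tumour-like cells, which held most UMIs of each library, had 75.0%, 63.8% and 55.3% of all Ccl2 UMIs in the Mfn2-/-, Rhot1-/- and WT libraries, against 10.9%, 17.4% and 10.3% in macrophage-like cells. An unnamed cluster led by Lum, Mmp3 and Dcn that also carried tumour markers stood at 1112, 1072 and 1639 CPM and held 1.85%, 2.99% and 22.2% of Ccl2 UMIs, with 83, 132 and 741 cells. Most Ccl2 UMIs of every library thus lay outside the myeloid classes.

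Ccl7, which like Ccl2 attracts monocytes through CCR2, lay between these patterns. It stood at 1236, 1834 and 1232 CPM in macrophage-like cells of the Mfn2-/-, Rhot1-/- and WT libraries, at 203, 243 and 162 CPM in monocyte-like cells and at 86.4, 74.6 and 92.3 CPM in tumour-like cells, with no overlap between these classes. Macrophage-like cells held 39.9%, 51.5% and 37.4% of Ccl7 UMIs and tumour-like cells 45.9%, 31.5% and 28.2%. Per 100 C1qa UMIs, tumour-like cells had 498, 355 and 481 Ccl7 UMIs, against 37.4, 48.0 and 33.4 in macrophage-like cells, so the tumour-like signal did not keep the ratio found in macrophage-like cells.

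Ccl24 was low and split the 2 macrophage-like clusters the other way from Ccl8. In the Arg1-led cluster it stood at 428, 868 and 464 CPM in the Mfn2-/-, Rhot1-/- and WT libraries, and in the C1qa-led cluster at 150, 107 and 103 CPM. Ccl8 stood at 337, 178 and 167 CPM in the Arg1-led cluster and at 3726, 6581 and 4271 CPM in the C1qa-led cluster. Monocyte-like cells had 74.0, 122 and 111 CPM of Ccl24, the second highest of the named classes, and neutrophil-like cells had 1, 5 and 8 UMIs in all. After thinning, a Ccl24 UMI was found in 12.6%, 13.4% and 9.58% of macrophage-like cells, 27.2%, 25.7% and 18.4% before it, and in at most 0.158% of thinned tumour-like cells of any library.

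**Figure D1:**
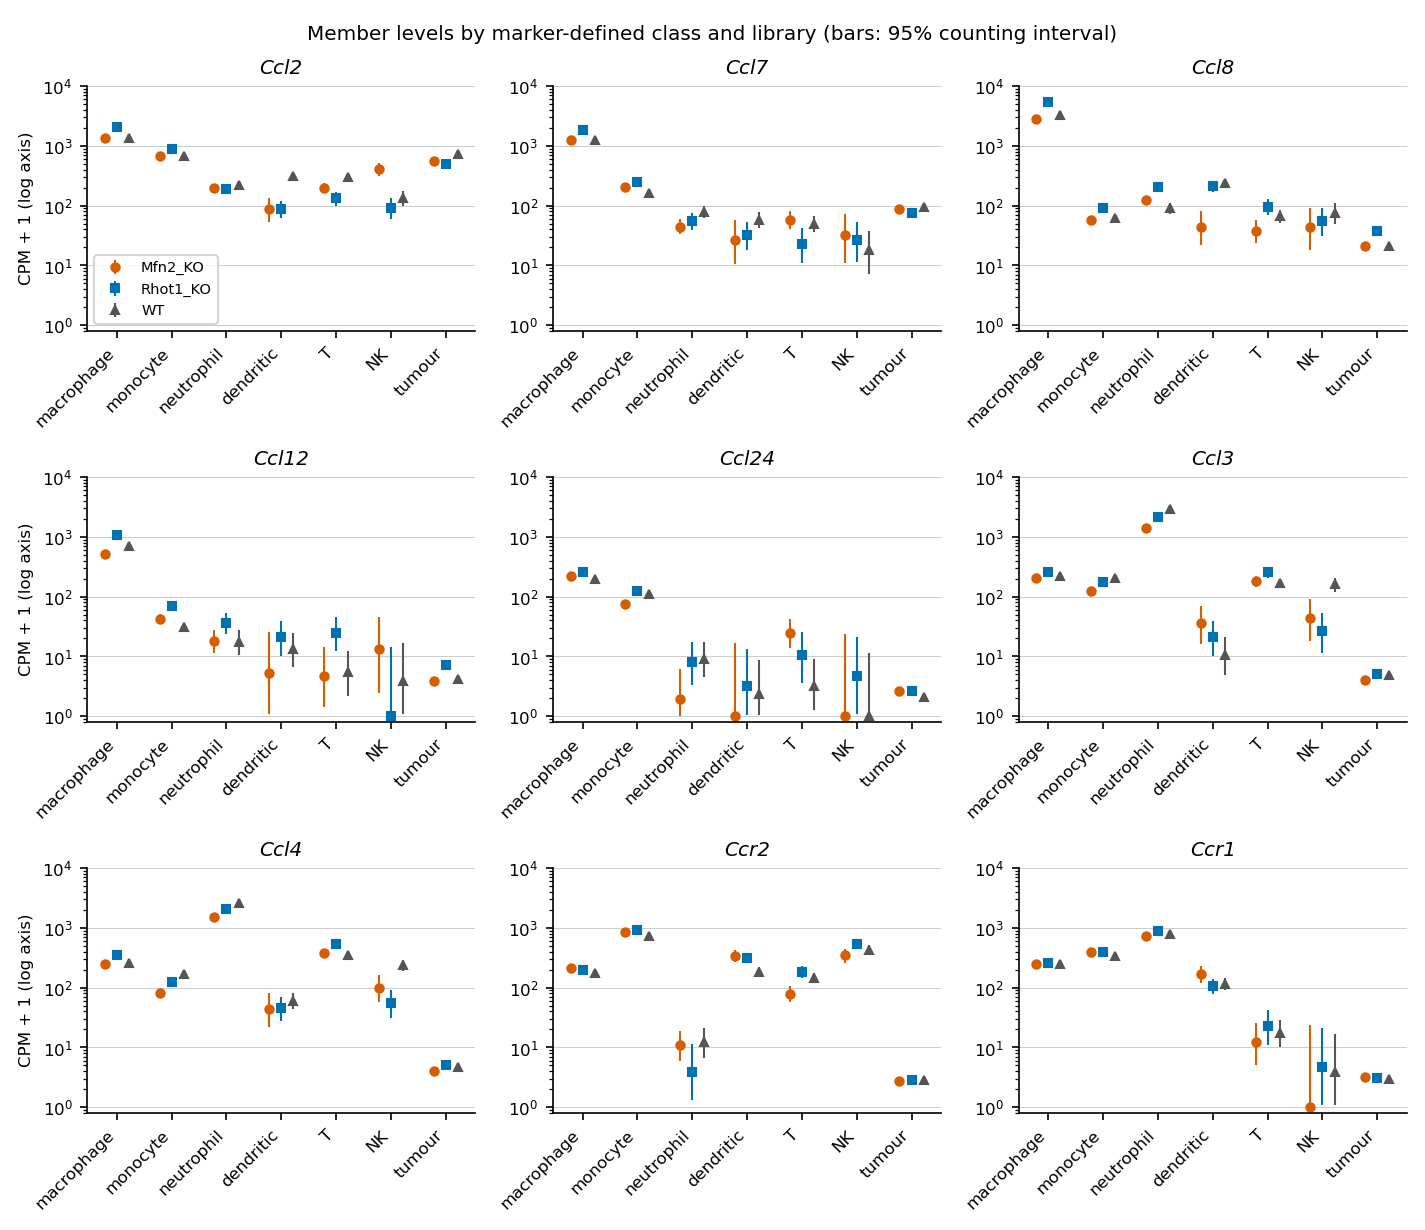
Level of each gene in CPM plus 1 (log axis) in 7 marker-defined classes, with 1 point for each library (circle Mfn2_KO, square Rhot1_KO, triangle WT) and bars for the 95% counting interval. Ccl8 and Ccl12 stand far above the other classes in macrophage-like cells, Ccl3 and Ccl4 in neutrophil-like cells, and Ccl2 reaches 493 to 732 CPM in tumour-like cells.

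Ccl3 and Ccl4, the macrophage inflammatory proteins 1 alpha and 1 beta, had their highest CPM in neutrophil-like cells. Ccl3 stood there at 1413 CPM (1344 to 1486) in the Mfn2-/- library, 2124 CPM (2017 to 2234) in the Rhot1-/- library and 2956 CPM (2849 to 3066) in the WT library. Macrophage-like cells had 208, 260 and 218 CPM of Ccl3, T-like cells 178, 253 and 170 CPM and monocyte-like cells 124, 174 and 206 CPM, and these 3 classes overlapped. Ccl4 stood at 1501, 2050 and 2576 CPM in neutrophil-like cells, with T-like cells next at 384, 534 and 345 CPM and macrophage-like cells at 244, 345 and 253 CPM. Neutrophil-like cells held 42.5%, 35.5% and 49.0% of Ccl3 UMIs and 38.9%, 29.7% and 41.2% of Ccl4 UMIs, although they made up 9.13%, 5.02% and 7.50% of cells and were the shallowest of the myeloid classes. Macrophage-like cells held 31.5%, 40.0% and 26.7% of Ccl4 UMIs, more than neutrophil-like cells in the Rhot1-/- library.

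In neutrophil-like cells a Ccl3 UMI was found in 38.1%, 43.8% and 46.6% of cells of the Mfn2-/-, Rhot1-/- and WT libraries, and in 28.5%, 38.1% and 41.4% after thinning, which left out 43.8%, 24.0% and 35.5% of the class. Tumour-like cells, at median depths of 16166, 17399 and 19593 UMIs, gave 0.374%, 0.373% and 0.385% after thinning. Both genes were held by few cells, with 52, 35 and 50 neutrophil-like cells holding 50% of the Ccl3 UMIs and 38, 25 and 42 cells holding 50% of the Ccl4 UMIs. Neutrophil-like cells with both genes made up 15.3%, 22.4% and 26.1% of thinned cells, where the product of the 2 separate shares is 7.55%, 12.3% and 16.4%.

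Ccr2 and Ccr1 were highest in different myeloid classes. Ccr2 stood at 851, 934 and 725 CPM in monocyte-like cells of the Mfn2-/-, Rhot1-/- and WT libraries, and these cells held 53.6%, 57.5% and 56.7% of its UMIs. NK-like cells came next at 345, 533 and 433 CPM, then dendritic-like cells at 334, 309 and 183 CPM and macrophage-like cells at 215, 195 and 178 CPM, which overlapped. Neutrophil-like cells had 11, 2 and 11 Ccr2 UMIs. After thinning, 54.0%, 57.6% and 48.5% of monocyte-like cells had a Ccr2 UMI (86.2%, 89.4% and 82.3% before it), against 0.611%, 0 and 0.915% of neutrophil-like cells.

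Ccr1 was found in all myeloid classes and was highest in neutrophil-like cells. It stood at 717, 900 and 787 CPM in neutrophil-like cells of the Mfn2-/-, Rhot1-/- and WT libraries, 390, 396 and 332 CPM in monocyte-like cells, 248, 262 and 246 CPM in macrophage-like cells and 169, 106 and 115 CPM in dendritic-like cells, with no overlap between neighbours in this order. T-like cells had 11.1, 21.5 and 16.6 CPM. A Ccr1 UMI was found in 47.9%, 60.2% and 57.4% of thinned neutrophil-like cells (55.4%, 67.5% and 61.2% before thinning), against 3.19%, 2.08% and 1.10% of thinned T-like cells. Macrophage-like cells, which were deeper, nonetheless held the largest share of Ccr1 UMIs, 38.2%, 39.1% and 39.6%. The 2 receptors were not kept apart in monocyte-like cells. Both were found in 19.9%, 18.8% and 14.0% of thinned monocyte-like cells, where the product of their shares is 18.2%, 18.3% and 12.8%.

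**Figure D2:**
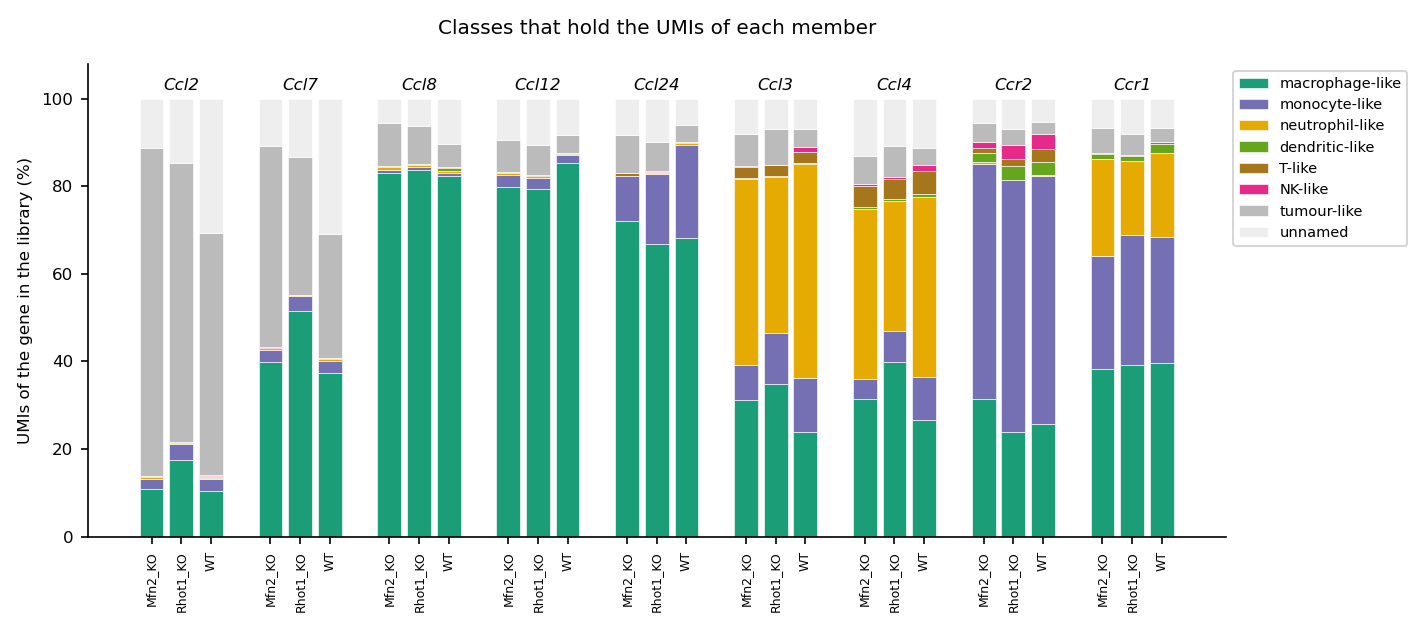
Share (%) of each gene's UMIs in a library that lies in each class, as stacked bars that sum to 100%, with the Mfn2_KO, Rhot1_KO and WT libraries side by side for each gene. Tumour-like cells hold 55.3% to 75.0% of Ccl2 UMIs and macrophage-like cells 82.3% to 83.7% of Ccl8 UMIs, while Ccr1 is spread over 3 myeloid classes.

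The genes were also compared with all others across 20 points, each a class in a library with at least 50 cells, among 5625 genes that reached 50 CPM in at least 1 point. The points share libraries and differ in depth, so Pearson's r of the log2 levels is a description. Ccl8 was most like Pmp22 (r = 0.97), Gas6 (0.95) and Fcrls (0.95), and Ccl12 most like Stab1 (0.96), C1qc (0.96) and C1qa (0.95). Ccl24 was most like F7 (0.96), Atp1b3 (0.95) and Arg1 (0.94). Ccl3 and Ccl4 were most like each other (0.96), Ccl7 most like Ctsb (0.98) and Ccl2 most like Ctsl (0.95), the last 2 being genes for lysosomal cathepsins. Ccr2 was most like Tln1 (0.98), Ms4a4c (0.97) and Serf2 (0.97), and Ccr1 most like Ptafr (0.99), Hlx (0.98) and Tlr2 (0.98).

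Within the macrophage-like class the ligands did not all sit in the same cells. After thinning, Ccl2 and Ccl7 were found together in 31.9%, 44.2% and 26.9% of cells of the Mfn2-/-, Rhot1-/- and WT libraries, where the product of their shares is 23.5%, 36.6% and 18.4%. Ccl8 and Ccl12 were found together in 8.87%, 19.6% and 12.1%, against products of 5.75%, 13.9% and 7.19%. By contrast, a Ccr2 UMI was found in 4.64%, 5.15% and 7.64% of macrophage-like cells with a Ccl8 UMI and in 22.0%, 26.8% and 22.9% of those without. In every library, cells with the monocyte receptor were thus mostly cells without detected Ccl8.

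The same split was drawn inside the C1qa-led cluster alone, where 311, 390 and 358 thinned cells of the Mfn2-/-, Rhot1-/- and WT libraries had a Ccl8 UMI and 431, 307 and 369 had none. Ccl12 stood at 749 CPM in cells with Ccl8 and 404 CPM in cells without in the Mfn2-/- library, at 1228 and 586 CPM in the Rhot1-/- library and at 1081 and 377 CPM in the WT library. Ccr2 stood at 48.2 CPM with Ccl8 and 376 CPM without in the Mfn2-/- library, at 74.4 and 466 CPM in the Rhot1-/- library and at 86.6 and 377 CPM in the WT library. Ccl24 was likewise lower in the cells with Ccl8, at 93.2 against 206 CPM, 69.2 against 202 CPM and 53.1 against 236 CPM in the same 3 libraries. Ccl12 was higher and Ccr2 and Ccl24 were lower beside Ccl8 in each library.

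Listed genes were then counted on either side of this split. Of all measured genes, 16.4% were higher and 16.3% were lower in the cells with Ccl8 in all 3 libraries. Of 10 genes listed for maturing macrophages, 7 were higher in the cells with Ccl8 in all 3 libraries and 1, Arg1, was lower, at 1730 against 2306 CPM in the Mfn2-/- library, 797 against 2000 CPM in the Rhot1-/- library and 955 against 2149 CPM in the WT library. Of 9 monocyte genes, 1 was higher and 5 were lower in all 3. Of 6 NF-kB feedback and inducible genes, 1 was higher and 2 (Il1b and Cxcl2) were lower in all 3, and of 10 dissociation stress genes 0 were higher and 5 were lower in all 3. A difference of any size was counted here, and the clusters were themselves made with the genes of these lists, so the counts describe these cells.

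**Figure D3:**
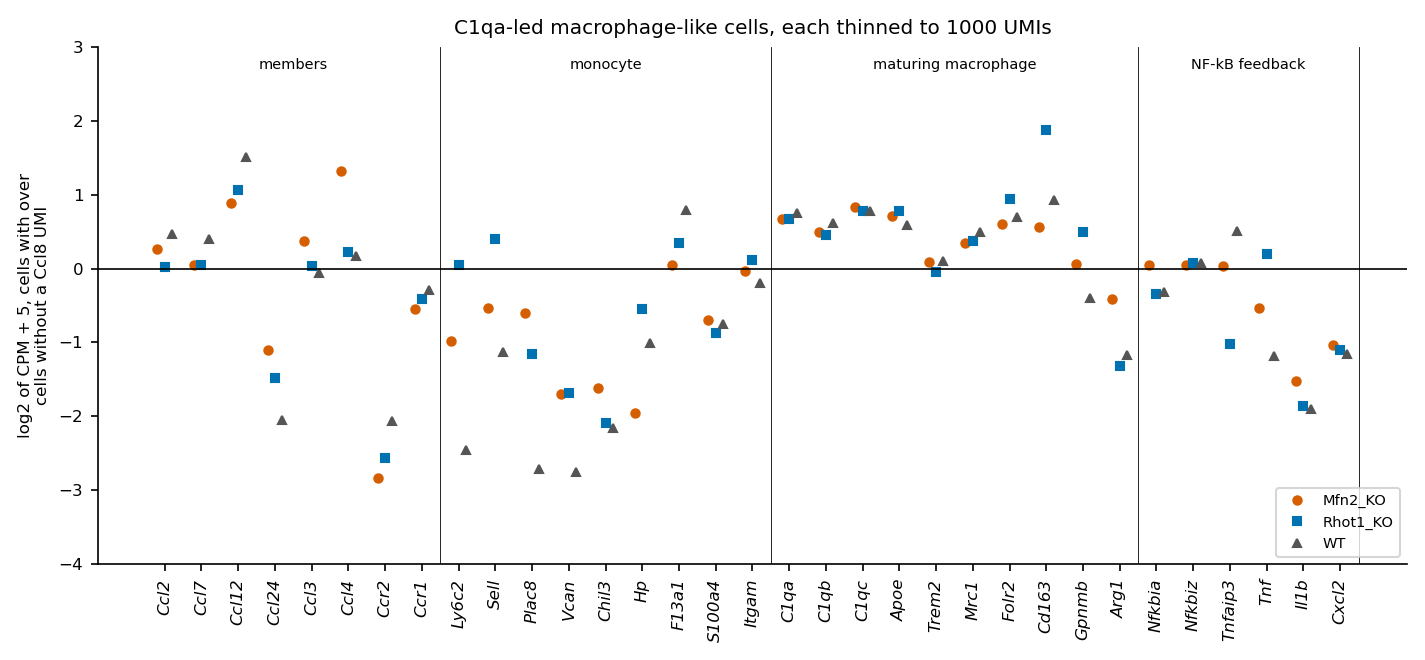
Log2 difference of CPM plus 5 between cells with and cells without a Ccl8 UMI in the C1qa-led macrophage-like cluster, each cell thinned to 1000 UMIs, for the other 8 genes and 3 gene lists, with 1 point per library. Ccr2, Ccl24, Il1b and Cxcl2 lie below 0 and Ccl12, C1qa and Apoe above 0 in all 3 libraries.

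Ccl24 marked other macrophage-like cells. Both clusters of the class were pooled for this split, so it includes the difference in Ccl24 between them. No split by Ccl24 was made inside either cluster. After thinning, 142, 126 and 112 cells of the Mfn2-/-, Rhot1-/- and WT libraries had a Ccl24 UMI and 986, 812 and 1057 had none, and a Ccl8 UMI was found in 19.0%, 23.0% and 16.96% of the cells with Ccl24 and in 32.3%, 49.0% and 36.6% of those without. Arg1 stood at 4824 CPM with Ccl24 and 2431 CPM without in the Mfn2-/- library, at 5159 and 1765 CPM in the Rhot1-/- library and at 5527 and 2059 CPM in the WT library. C1qa stood at 1606 against 2944 CPM, 1651 against 3743 CPM and 1393 against 3137 CPM in the same libraries. Arg1 was thus higher and C1qa lower beside Ccl24 in each library.

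Among neutrophil-like cells, 140, 133 and 181 thinned cells of the Mfn2-/-, Rhot1-/- and WT libraries had a Ccl3 UMI and 351, 216 and 256 had none. Cxcl2, a neutrophil attractant, stood at 30171 CPM with Ccl3 and 15291 CPM without in the Mfn2-/- library, at 39474 and 20431 CPM in the Rhot1-/- library and at 52751 and 20156 CPM in the WT library. Nfkbia, the NF-kB inhibitor that NF-kB itself induces, stood at 1657 against 866 CPM, 2286 against 1056 CPM and 4425 against 1891 CPM. Of the 6 NF-kB feedback and inducible genes, 3 were higher with Ccl3 in all 3 libraries and 0 were lower in all 3. The share of all measured genes was not computed for this split, so no theme is read from the list. Ccr1 differed less, at 971 against 650 CPM, 1113 against 972 CPM and 1055 against 813 CPM, and was also higher with Ccl3 in each library.

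The genotypes were then compared class by class. A gene was taken as measured at a mean of 10 CPM or more over the 2 libraries compared, and a ratio of 1.5 or more, or of 1/1.5 or less, was counted. In macrophage-like cells all 9 genes were measured in both comparisons. In Mfn2-/- over WT 0 of 9 stood past 1.5-fold, where 4.31% of all measured genes did. In Rhot1-/- over WT 1 of 9 did, Ccl8, where 3.88% of all measured genes did and 2.1% were higher.

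Ccl8, with the levels given above, had a ratio of 1.65 (1.62 to 1.68) in macrophage-like cells of the Rhot1-/- library over WT and of 0.869 (0.851 to 0.887) in those of the Mfn2-/- library over WT. The Rhot1-/- library was thus the highest and the Mfn2-/- library the lowest. Without the cell with most Ccl8 UMIs in each library, which held 845, 751 and 646 UMIs, the ratios were 1.66 and 0.849. Of the 2 clusters, the C1qa-led one made up 65.8% of the class in the Mfn2-/- library, 74.4% in the Rhot1-/- library and 62.1% in the WT library, and within it alone the Ccl8 ratios were 1.54 (1.51 to 1.57) for Rhot1-/- and 0.872 (0.854 to 0.891) for Mfn2-/-, where 3.34% and 4.81% of genes stood past 1.5-fold. In the Arg1-led cluster alone the Rhot1-/- ratio was 1.06 (0.881 to 1.29).

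The other 3 ligands of that chromosome 11 group were close behind in the Rhot1-/- library. The ratio was 1.497 (1.44 to 1.56, just under the threshold) for Ccl12, 1.49 (1.45 to 1.53) for Ccl7 and 1.47 (1.43 to 1.51) for Ccl2, which are 1066 against 712, 1834 against 1232 and 2024 against 1375 CPM. The remaining ratios in the Rhot1-/- library were 1.36 for Ccl4, 1.32 for Ccl24, 1.20 for Ccl3, 1.09 for Ccr2 and 1.06 for Ccr1. The median log2 ratio of the 9 genes was 0.44 and that of all measured genes 0.067. Ligands stood higher and both receptors near their WT level in the main setting. Over the main and alternative settings the log2 ratio of Ccr2 ran between -0.70 and 0.26. That of Ccr1 ran between -0.11 and 0.27. Tumour-like cells, with most Ccl2 UMIs, went the other way for Ccl2 and Ccl7 in Rhot1-/- over WT. The ratios there were 0.673 (0.665 to 0.682) and 0.808 (0.780 to 0.838), neither past 1.5-fold, while Ccl8 stood at 1.77. In Mfn2-/- tumour-like cells the Ccl2 ratio was 0.772. Over all kept cells it was 0.720 in Rhot1-/- and 0.752 in Mfn2-/-.

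In macrophage-like cells of the Mfn2-/- library the same genes lay on either side of WT. Ccl12 was the lowest, at 521 against 712 CPM (ratio 0.732, 0.698 to 0.767), and Ccr2 the highest, at 215 against 178 CPM (1.21, 1.11 to 1.31). Ccl2 (0.980), Ccl7 (1.00), Ccl3 (0.955), Ccl4 (0.964) and Ccr1 (1.01) were within 5% of WT, and Ccl24 stood at 1.16. The median log2 ratio was -0.030 for the 9 genes and 0.0085 for all measured genes.

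The Arg1-led cluster behaved otherwise. In Rhot1-/- over WT, 5 of the 9 genes were higher past 1.5-fold there, where 14.7% of measured genes were higher. They were Ccl12 at 258 against 80.2 CPM (3.22, 2.60 to 3.99), Ccl7 at 1354 against 623 CPM (2.17), Ccl2 at 2163 against 1049 CPM (2.06), Ccl24 at 868 against 464 CPM (1.87) and Ccl4 at 404 against 251 CPM (1.61). In Mfn2-/- over WT, Ccl8 (337 against 167 CPM, 2.01) and Ccl12 (148 against 80.2 CPM, 1.84) were higher, where 9.83% of measured genes were higher. One cell held 138 of the 492 Ccl8 UMIs of the Mfn2-/- library there, and without the top 2 cells of each library the Ccl8 ratio was 1.26.

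**Figure D4:**
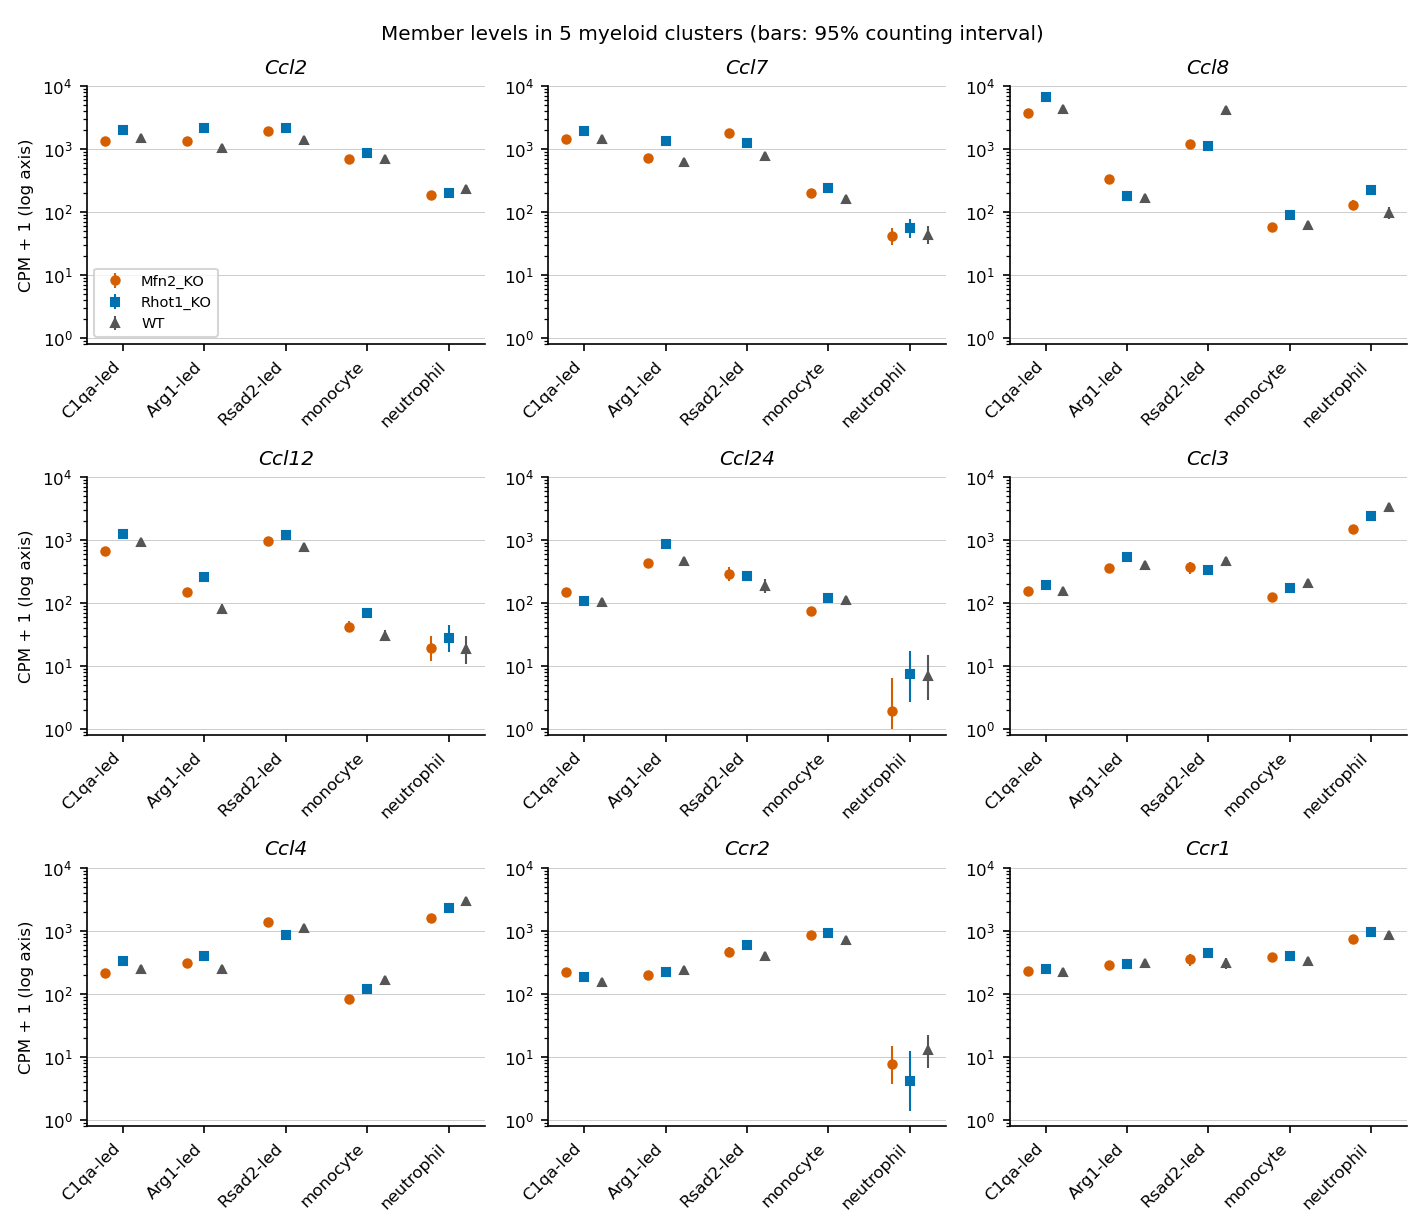
Level of each gene in CPM plus 1 (log axis) in 5 myeloid clusters, named by their leading genes or class, with 1 point per library (circle Mfn2_KO, square Rhot1_KO, triangle WT) and 95% counting intervals. Ccl8 is highest in the C1qa-led cluster and Ccl24 in the Arg1-led one, and the Rsad2-led cluster holds Ccl2, Ccl7, Ccl12 and Ccl4 at 783 to 2159 CPM.

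The Rsad2-led cluster held both ligands and receptors when its cells were summed. Whether single cells of it held both was not examined. Ccl4 stood there at 1416, 855 and 1101 CPM in the Mfn2-/-, Rhot1-/- and WT libraries, and Ccr2 at 463, 596 and 397 CPM, above the macrophage-like class for both genes in every library. Ccl7 stood at 1816, 1247 and 783 CPM, ratios of 2.32 for Mfn2-/- over WT and 1.59 for Rhot1-/- over WT, in a cluster so small that 36.4% and 33.3% of measured genes stood past 1.5-fold. Ccl8 stood at 1218, 1105 and 4205 CPM, and 1 WT cell held 849 and another 406 of its 1429 WT UMIs. Without the top 2 cells of each library Ccl8 stood at 392, 680 and 546 CPM, ratios of 0.717 and 1.24.

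Monocyte-like cells formed 1 cluster, and their ratios moved with the clustering. In Mfn2-/- over WT 2 of 9 genes were past 1.5-fold, both lower, where 6.4% of measured genes were past it and 2.77% were lower. Ccl3 stood at 124 against 206 CPM (0.602, 0.524 to 0.691) and Ccl4 at 81.2 against 168 CPM (0.482, 0.407 to 0.569). Ccl24, at 74.0 against 111 CPM, lay just outside the threshold (0.667). Neither call held at a finer or a coarser clustering or with libraries clustered apart. Over all settings the log2 ratio of Ccl3 ran between -0.95 and 0.15 and that of Ccl4 between -1.12 and -0.20. The log2 ratio of Ccl3 was -0.71, but 0.030 at a finer clustering and 0.15 with libraries clustered apart, and that of Ccl4 was -1.01, but -0.20 at both and -0.36 at a coarser clustering. With libraries clustered apart 6 of the 9 genes stood past 1.5-fold and all 6 were higher in Mfn2-/-, and at the finer and the coarser clustering 2 did and both were higher. No direction for the 9 genes is therefore read in Mfn2-/- monocyte-like cells.

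In Rhot1-/- over WT, 2 of 9 genes were past 1.5-fold in monocyte-like cells, both higher, where 4.12% of measured genes were past it and 2.31% were higher. Ccl12 stood at 68.9 against 29.6 CPM (2.33, 1.82 to 2.98) and Ccl7 at 243 against 162 CPM (1.505, 1.34 to 1.68, just past the threshold). Ccl12 rested on 9 Rhot1-/- cells and 8 WT cells that held 50% of its UMIs. Ccl8 stood at 89.4 against 61.2 CPM (1.46, 1.21 to 1.76) and Ccl2 at 880 against 686 CPM (1.28). No Ccl8 expression was read from monocyte-like cells above, and the part of free RNA in this Ccl8 ratio was not tested. The median log2 ratio of the 9 genes was 0.0043 in Mfn2-/- and 0.36 in Rhot1-/-, and that of all measured genes 0.033 and 0.029.

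The receptors of monocyte-like cells stood a little above WT in both knockouts. Ccr2 had ratios of 1.17 (1.11 to 1.24) in Mfn2-/- and 1.29 (1.22 to 1.36) in Rhot1-/-, and Ccr1 of 1.17 (1.07 to 1.28) and 1.19 (1.10 to 1.30). None of these passed 1.5-fold. Of 9 monocyte genes listed, 5 were higher past 1.5-fold in Mfn2-/- monocyte-like cells and 1 in Rhot1-/- ones, where 3.64% and 2.31% of measured genes were higher. The summed level of 10 neutrophil markers in monocyte-like cells was 3418 CPM in the Mfn2-/- library, 1532 CPM in the Rhot1-/- library and 1290 CPM in the WT library, with 0 of the 10 at 0 UMIs, and its part in these ratios was not tested.

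In neutrophil-like cells Ccl3 and Ccl4 were lower in both knockouts than in WT, and past 1.5-fold in Mfn2-/-. Of 8 measured genes 3 stood past 1.5-fold in Mfn2-/- over WT, all lower, in a shallow class where 25.9% of measured genes were past it and 14% were lower. Ccl3, with the levels given above, had ratios of 0.478 (0.449 to 0.509) in Mfn2-/- and 0.718 (0.674 to 0.765) in Rhot1-/-, and Ccl4 of 0.583 (0.547 to 0.620) and 0.796 (0.745 to 0.849). The WT library was the highest and the Mfn2-/- library the lowest for both genes. Without the top 2 cells of each library the Ccl3 ratios were 0.473 and 0.703. Ccr1 stood at 0.912 (0.824 to 1.01) and 1.14 (1.03 to 1.27).

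The other gene counted in Mfn2-/- neutrophil-like cells, Ccl7, rested on a single cell. It had 48 UMIs in the Mfn2-/- library, 38 in the Rhot1-/- library and 75 in the WT library, where 1 cell held 37. The ratio of 0.567 (0.386 to 0.826) was 0.980 without the top cell of each library. In Rhot1-/- over WT 2 of 7 measured genes were past 1.5-fold, both higher, where 23.9% of measured genes were past it and 13.1% were higher. These were Ccl8 at 202 against 90.6 CPM (2.23, 1.70 to 2.95) and Ccl12 at 35.6 against 16.5 CPM (2.16, 1.11 to 4.33, from 25 and 16 UMIs), the Ccl12 log2 ratio being 0.92, and 0.42 after thinning. Tumour-like cells too had more Ccl8 in Rhot1-/-, at 36.3 against 20.5 CPM (1.77, 1.66 to 1.89), where 1.31% of measured genes were past 1.5-fold. In neutrophil-like cells Ccl8 had 163, 197 and 93.6 UMIs per 100 C1qa UMIs in the Mfn2-/-, Rhot1-/- and WT libraries, and Ccl12 had 22.9, 34.7 and 17.02. The part of free RNA in these ratios was not tested.

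**Figure D5:**
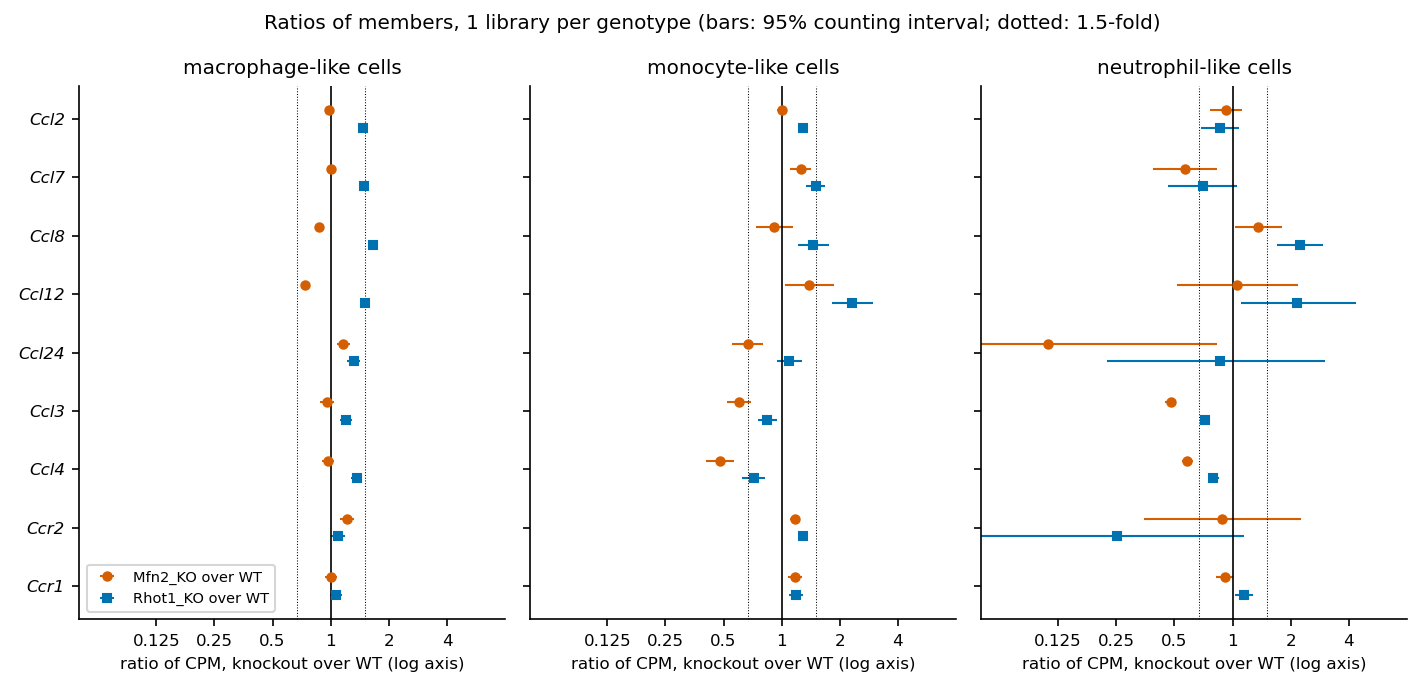
Ratio of CPM, knockout over WT (log axis), of each gene in macrophage-, monocyte- and neutrophil-like cells, with 95% counting intervals, circles for Mfn2_KO and squares for Rhot1_KO, and dotted lines at 1.5-fold. Ccl8 at 1.65 in Rhot1_KO macrophage-like cells and Ccl3 at 0.478 in Mfn2_KO neutrophil-like cells lie outside the lines, and both receptors lie inside them in macrophage-like and monocyte-like cells.

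NF-kB feedback genes and tissue-dissociation genes were counted in the same classes. Of 6 NF-kB feedback and inducible genes, 6 were lower past 1.5-fold in Mfn2-/- and 3 in Rhot1-/- neutrophil-like cells, 6 and 0 in monocyte-like cells and 4 and 3 in macrophage-like cells. The shares of all measured genes that were lower past 1.5-fold in Mfn2-/- and in Rhot1-/- were 14% and 10.8% in neutrophil-like, 2.77% and 1.81% in monocyte-like and 2.4% and 1.79% in macrophage-like cells. Nfkbia stood at 1100, 1467 and 2433 CPM in neutrophil-like cells of the Mfn2-/-, Rhot1-/- and WT libraries, and Tnf at 13.7, 45.6 and 63.8 CPM. Of 10 dissociation stress genes, 3 were lower in Mfn2-/- and 1 in Rhot1-/- neutrophil-like cells, 4 in each in monocyte-like cells, and 4 and 3 in macrophage-like cells. The 1 of 10 in Rhot1-/- neutrophil-like cells is near the share of all genes. The order of Nfkbia and Tnf over the libraries was that of Ccl3 and Ccl4 in neutrophil-like cells, and the part of tissue handling in those ratios was not tested.

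Markers of other cells gave further differences between the libraries. In neutrophil-like cells the sum of 7 progenitor markers was 34.7, 18.5 and 1300 CPM in the Mfn2-/-, Rhot1-/- and WT libraries, with 0 of the 7 at 0 UMIs. The class includes a small cluster led by Ngp and Camp, of 10, 18 and 24 cells, which are genes of immature neutrophils. Without that cluster Ccl3 stood at 1496, 2397 and 3402 CPM and Ccl4 at 1590, 2313 and 2960 CPM, in the same order of libraries. The sum of 8 fibroblast markers was 175, 198 and 392 CPM in neutrophil-like cells and 95.7, 100 and 181 CPM in macrophage-like cells, highest in the WT library each time, and 0 of the 8 were at 0 UMIs. Its part in the ratios was not tested.

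Of the other CC genes, the lists reported here held 13 ligands and 5 atypical receptors, and few were measured in these classes. Ccl6 and Ccl9, chemokines of mouse myeloid cells, stood at 7898, 7127 and 5923 CPM and at 2899, 2398 and 2070 CPM in macrophage-like cells of the Mfn2-/-, Rhot1-/- and WT libraries, and neither passed 1.5-fold. In macrophage-like cells 0 of 3 measured ligands passed it in Mfn2-/- and 1 of 4 in Rhot1-/-, where 4.31% and 3.88% of all measured genes did. That gene was Ccl5 (RANTES), a ligand of CCR1 known from T and NK cells, at 119 against 65.2 CPM (1.83, 1.62 to 2.07). It was also the 1 ligand of 3 higher in Rhot1-/- monocyte-like and neutrophil-like cells (3.00 and 3.02), where 2.31% and 13.1% of measured genes were higher. Its levels there were low, at 46.5 against 15.5 CPM and 34.2 against 11.3 CPM. T-like cells held Ccl5 at 2752, 3933 and 2823 CPM, and the part of free RNA in the Ccl5 ratios of myeloid classes was not tested.

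Of the 5 atypical receptors on the list 1 was measured in neutrophil-like cells, and it was lower past 1.5-fold in both knockouts. In this shallow class 14% of measured genes were lower past 1.5-fold in Mfn2-/- and 10.8% in Rhot1-/-. This gene, Ccrl2, whose protein binds chemerin without signalling, stood at 200 CPM in the Mfn2-/- library, 205 CPM in the Rhot1-/- library and 582 CPM in the WT library, ratios of 0.344 (0.293 to 0.402) and 0.353 (0.292 to 0.424). In macrophage-like cells the ratios were 0.626 and 0.651, and in monocyte-like cells of the Mfn2-/- library 0.470. In monocyte-like cells of the Rhot1-/- library the Ccrl2 ratio was 1.10.

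Lymphoid and dendritic-like cells were few, 35 to 298 per class and library among dendritic-, T- and NK-like cells, and their ratios spread widely. In Mfn2-/- over WT 37.7% of measured genes stood past 1.5-fold in dendritic-like cells and 35.1% in T-like cells, and in Rhot1-/- over WT 27% did in T-like and 38.6% in NK-like cells. Ccr2 stood at 334, 309 and 183 CPM in dendritic-like cells of the Mfn2-/-, Rhot1-/- and WT libraries and at 78.0, 181 and 146 CPM in T-like cells. Ccl4, which cytotoxic lymphocytes also make, stood at 98.6, 54.8 and 237 CPM in NK-like cells, from 16, 15 and 83 UMIs. With such a background these ratios are listed as values.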

How the data were processed

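One 10x 3′ single-cell library per genotype was analysed. Values deposited by the authors are raw UMI counts for each gene in each barcode. Per the file headers they come from Cell Ranger 7.0.0, and the submitters' processing notes name build mm10. The annotation used was not given in the sources used here. 3′ counts tag transcript ends, so levels carry no length term.

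Barcodes needed 300 genes or more, with mitochondrial UMIs at 15% or less. Scrublet, run per library, marked 308, 221 and 254 doublets in the Mfn2-/-, Rhot1-/- and WT libraries, which were removed, leaving 9560, 9138 and 9041 cells at median depths of 10855, 12109 and 9813 UMIs. With scanpy 1.11.5, 1979 variable genes (the 9 genes and the other listed CC genes left out), 30 components, 15 neighbours and leidenalg 0.10.2 at resolution 1 gave 24 clusters, jointly and without integration. Clusters were named "like" a class from marker lists. The naming rule was set after the data were seen, and clusters with tumour and other markers together, or shallow ones with no leading marker, stayed unnamed.

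UMIs were summed per class and library and scaled to CPM. Poisson, Clopper-Pearson (exact binomial) and conditional exact 95% intervals came from scipy 1.17.1. They treat UMIs as independent and so cover counting error only; a gene whose UMIs sit in few cells has a wider true error. Log2 ratios used a pseudocount of 5 CPM. Shares of cells with a UMI were also computed after thinning each cell to 1000 UMIs, shallower cells left out. The computation was tested on simulated counts.

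Named genes were all 9 members in every class, up to the 2 highest and 2 lowest ratios of other lists, and for each gene the 3 most alike by Pearson's r. Other names given beside a result (Mfn2, Rhot1, Dmp1, Sost, Nfkbia between genotypes and the genes split by Ccl8 or Ccl3) were chosen after values were seen. Members, lists and comparisons were chosen with earlier results of these data known. Alternatives changed the cell filter, doublets, clustering, scaling, low-value filter, pseudocount, fold, top cell, cluster weights and depth; single clusters of a class were added after seeing the data. Promoter letters came from RefSeq tables. Results for other signalling receptors of the family are not reported here.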

Additional observations from a re-analysis of the deposited data

Results flagged for a closer look

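Some genes differed in direction between classes under the same contrast, and these differences were not tested. In Mfn2-/- over WT, Ccl3 had a ratio of 3.57 in dendritic-like cells, from 8 and 7 UMIs, but of 0.478 in neutrophil-like cells. The monocyte-like Ccl3 ratio was 0.602, but it changed sign under other clusterings, so no direction is read from it. In dendritic-like cells of the same comparison 37.7% of measured genes stood past 1.5-fold. Ccr2 had a ratio of 1.82 in dendritic-like cells and 0.535 in T-like cells, from 77 against 132 and 42 against 132 UMIs. In Rhot1-/- over WT, Ccl4 had a ratio of 1.55 in T-like cells and 0.232 in NK-like cells, the last from 15 against 83 UMIs. Ccl7 had a ratio of 1.5 in monocyte-like cells and 0.441 in T-like cells, the last from 9 against 44 UMIs. These lymphoid and dendritic-like classes held 35 to 298 cells per library. Each ratio compares 1 library with 1 library.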

How the results depend on the processing

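No paired analysis was possible because each genotype has 1 library. Of 82 alternative counts of genes past 1.5-fold, 57 stayed within 1.5 times the count reported, and of 630 alternative log2 ratios 431 stayed within their interval. Of the 113 that belong to genes past 1.5-fold in the main setting, 69 stayed within it and 4 changed sign. Sign changes of the other ratios were not counted, and some crossed 0. In macrophage-like cells these included Ccl8 in Mfn2-/- (between -0.34 and 0.99) and Ccr2 in Mfn2-/- (-0.61 and 0.48) and Rhot1-/- (-0.70 and 0.26). In macrophage-like cells, the Mfn2-/- count of 0 became 1 with each library clustered on its own and 2 in the Arg1-led cluster alone. The Rhot1-/- count of 1 became 2 at 500 genes and 10% mitochondrial UMIs and without the top cell, 3 at resolution 2, 4 after thinning, 5 with libraries clustered apart, clusters weighted alike or the Arg1-led cluster alone, and 0 at a fold of 2. In monocyte-like cells the Mfn2-/- count of 2 became 4 under the stricter cell filter, 6 (all higher) with libraries clustered apart and 1 at a fold of 2. The Rhot1-/- count of 2 became 5 at resolution 2 and with libraries clustered apart, and 1 with median-ratio scaling, a 50 CPM minimum, a fold of 2 or without the top cell. In neutrophil-like cells the Mfn2-/- count of 3 became 1 at a fold of 2 and 5 with clusters weighted alike. The Rhot1-/- count of 2 became 4 at resolution 0.5, with libraries clustered apart and with clusters weighted alike, and 1 at a 50 CPM minimum. Among genes past 1.5-fold in the main setting, the log2 ratios that changed sign were both in Mfn2-/- over WT. They were Ccl3 in monocyte-like cells (-0.71; 0.030 at resolution 2, 0.15 with libraries clustered apart) and Ccl7 in neutrophil-like cells (-0.75; 0.37 under the stricter filter, 0.039 after thinning). The cause was not tested, but clustering apart left 515 WT cells in the monocyte-like class against 892. The log2 ratio of Ccl8 in Rhot1-/- macrophage-like cells ran between 0.09 and 1.07, the low end in the Arg1-led cluster alone. That of Ccl3 in Mfn2-/- neutrophil-like cells ran between -1.58 and -1.06, and that of Ccl4 between -1.22 and -0.77. Weighting clusters alike was not run for monocyte-like cells, which are 1 cluster. Low depth limits neutrophil-like, dendritic-like and lymphoid cells most, and 1 pooled library per genotype limits every ratio.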
